A study of Mus musculus with 2 samples.

Results

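The genes described here are 7 of the 41459 genes in the count matrices: the beta-defensins Defb36 and Defb45, the cystatins Cst9 and Cst12, the WAP-domain proteins Wfdc10 and Wfdc18, and the serpin Serpina3a. They were taken by symbol. They had been chosen by their UMI levels in the Sertoli-like barcodes of these same libraries, which they led, so their high level in Sertoli cells is a description and not a finding. Whole testes of mice aged 55 days were dissociated and single cells were sequenced after capture on a 10x Chromium chip, with 1 library labelled WT (Rad21l+/+) and 1 labelled RAD21L KO (Rad21l-/-). RAD21L is a cohesin subunit of meiotic germ cells. No drug, transgene or Cre driver is named for either library, and how many mice went into each is not given in the sources used here. With 1 library per genotype there is no replicate, so every difference below compares 2 libraries and carries no test. All intervals are 95% intervals that cover counting error only.

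Sertoli cells are the somatic nurse cells of the seminiferous tubule and secrete proteases, protease inhibitors and antimicrobial proteins around the germ cells they hold. Beta-defensins are small cationic antimicrobial peptides of epithelia, and many members of the family are made in the male tract. Cystatins are a family of cysteine protease inhibitors that act on cathepsins of the papain family, such as the cathepsin L that Sertoli cells secrete, although some testis cystatins lack the inhibitory residues. WAP-domain proteins are small cysteine-rich secreted proteins, several of which inhibit serine proteases, and serpins inhibit serine proteases by a conformational trap.

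In RefSeq's GRCm38.p6 annotation, 5 of the 7 genes lie on chromosome 2 in 3 places, Wfdc18 lies on chromosome 11 and Serpina3a on chromosome 12. Defb36 and Defb45 start 7.84 kb apart on opposite strands, and Cst9 and Cst12 start 45.8 kb apart on the same strand. The 250 bases before the annotated start are shown for 4 genes, because these cover the contrasts that the counts turn on: Defb36 and Cst12, which were about equal in the 2 genotypes, Cst9, which was higher in WT, and Wfdc18, which was counted in KO only. The windows are chr2:152604077-152604326 (plus strand) for Defb36, chr2:148834897-148835146 (plus strand) for Cst9, chr2:148789115-148789364 (plus strand) for Cst12 and chr11:83708754-83709003 (plus strand) for Wfdc18, read 5′ to 3′. Capitals mark exact matches, on either strand, to 4 motifs: the core promoter element TATAAA, the half-site CAAGGTC of the nuclear receptor NR5A1, the SOX-family element AACAAT and the GATA-factor element AGATAA.
Defb36: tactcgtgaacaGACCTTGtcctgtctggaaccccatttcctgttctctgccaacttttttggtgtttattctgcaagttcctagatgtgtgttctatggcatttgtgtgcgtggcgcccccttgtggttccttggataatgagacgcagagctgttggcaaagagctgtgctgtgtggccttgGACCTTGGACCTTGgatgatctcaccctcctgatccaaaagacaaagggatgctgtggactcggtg
Cst9: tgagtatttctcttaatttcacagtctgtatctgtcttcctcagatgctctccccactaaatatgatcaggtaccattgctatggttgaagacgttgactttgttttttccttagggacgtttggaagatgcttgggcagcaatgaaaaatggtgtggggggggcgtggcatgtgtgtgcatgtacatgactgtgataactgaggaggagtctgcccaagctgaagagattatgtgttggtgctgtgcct
Cst12: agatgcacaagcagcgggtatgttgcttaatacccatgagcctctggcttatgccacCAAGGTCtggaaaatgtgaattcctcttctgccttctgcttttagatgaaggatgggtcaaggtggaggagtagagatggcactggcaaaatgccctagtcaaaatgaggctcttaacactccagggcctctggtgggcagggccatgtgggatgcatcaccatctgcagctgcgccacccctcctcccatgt
Wfdc18: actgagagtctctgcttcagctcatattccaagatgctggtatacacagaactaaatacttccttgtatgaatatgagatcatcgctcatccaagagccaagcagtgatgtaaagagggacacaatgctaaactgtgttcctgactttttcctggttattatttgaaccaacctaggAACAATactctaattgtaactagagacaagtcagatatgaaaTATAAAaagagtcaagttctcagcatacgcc
The Defb36 window held 3 matches to CAAGGTC, all on the opposite strand, of which 2 stand side by side between 66 and 53 bases before the start. The Cst12 window held 1 match to the same letters, 193 to 187 bases before the start, and the Cst9 window held no match to any of the 4 motifs. Among all 32851 promoter windows of that length, 3.32% held CAAGGTC on either strand, against 2 of the 7 genes here. The Wfdc18 window had TATAAA 31 to 26 bases before the start and AACAAT 73 to 68 bases before it. TATAAA was found in 2 of the 7 genes (Wfdc18, and Serpina3a with overlapping matches on both strands) and in 12.4% of all windows. AACAAT was found in 2 of the 7 (Wfdc10 and Wfdc18) against 9.42%, and AGATAA in 1 of the 7 (Wfdc10) against 9.99%. These matches describe letters only, since neither library measured binding or chromatin.

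The WT library held 5415 barcodes with 33096309 UMIs, and the KO library held 7118 barcodes with 28001992 UMIs. After filters on detected genes and mitochondrial UMIs, 5400 and 6381 barcodes remained. A marker gate for 13 classes, which used none of the 7 genes, put 30 WT and 1184 KO barcodes in the Sertoli class, with medians of 9647.5 and 6871.5 UMIs. Of the 16 Sertoli markers, 15 had at least 4 UMIs in both gated sets, among them Sox9 (502 CPM WT, 641 CPM KO) and Wt1 (349 CPM WT, 319 CPM KO), and Krt18 had 0 UMIs in WT and 2 in KO. Barcodes with 3 to 7 Sertoli markers, called sparse here, numbered 94 in WT and 1090 in KO with medians of 1514.5 and 985 UMIs. Elongating spermatid markers made up 1.502% of the UMIs of WT Sertoli-gated barcodes (10 of 10 markers had a UMI) and 0.000454% in KO (8 of 10), and Leydig markers 0.00356% (4 of 11) and 0.0684% (11 of 11). The part of these other cell types in the levels below was not tested. The deposited libraries shared 14 barcode sequences, 2 of which were Sertoli-gated in either library. Rad21l itself had 82 UMIs in WT and 111 in KO, at 36.2 CPM (interval 23.8 to 52.6) and 17.3 CPM (12.4 to 23.3) in early prophase barcodes. Whether its reads fall inside the altered part of the gene is not given in the sources used here, so this does not check the labels.

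Within each library the 7 genes were concentrated in the Sertoli gate, the pattern for which they had been chosen. Relative to all other gated classes together, the KO Sertoli sum was higher by 10.4-fold for Cst9, 11.02-fold for Wfdc10, 13.6-fold for Defb36, 13.9-fold for Defb45, 14.0-fold for Cst12 and 14.1-fold for Wfdc18, and by 4.79-fold for Serpina3a. In WT, 6 of the 7 were higher by between 77.3-fold (Wfdc10) and 157-fold (Cst12), while Wfdc18 had no UMI. All members with a UMI were therefore past 2-fold, and so were 18.8% of all genes tested in KO and 28.9% in WT. By that fold the members ranked between 209 and 1145 of 16766 genes in KO and between 45 and 307 of 18711 in WT. Many other genes were thus more restricted to the gate than the members were. The other gated classes differed between the libraries, so the KO and WT folds are not comparable with each other. Pachytene and diplotene, round spermatid and elongating spermatid barcodes numbered 661, 1170 and 1083 in WT and 0 in KO. Leydig barcodes numbered 7 in WT and 660 in KO.

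**Figure D1:**
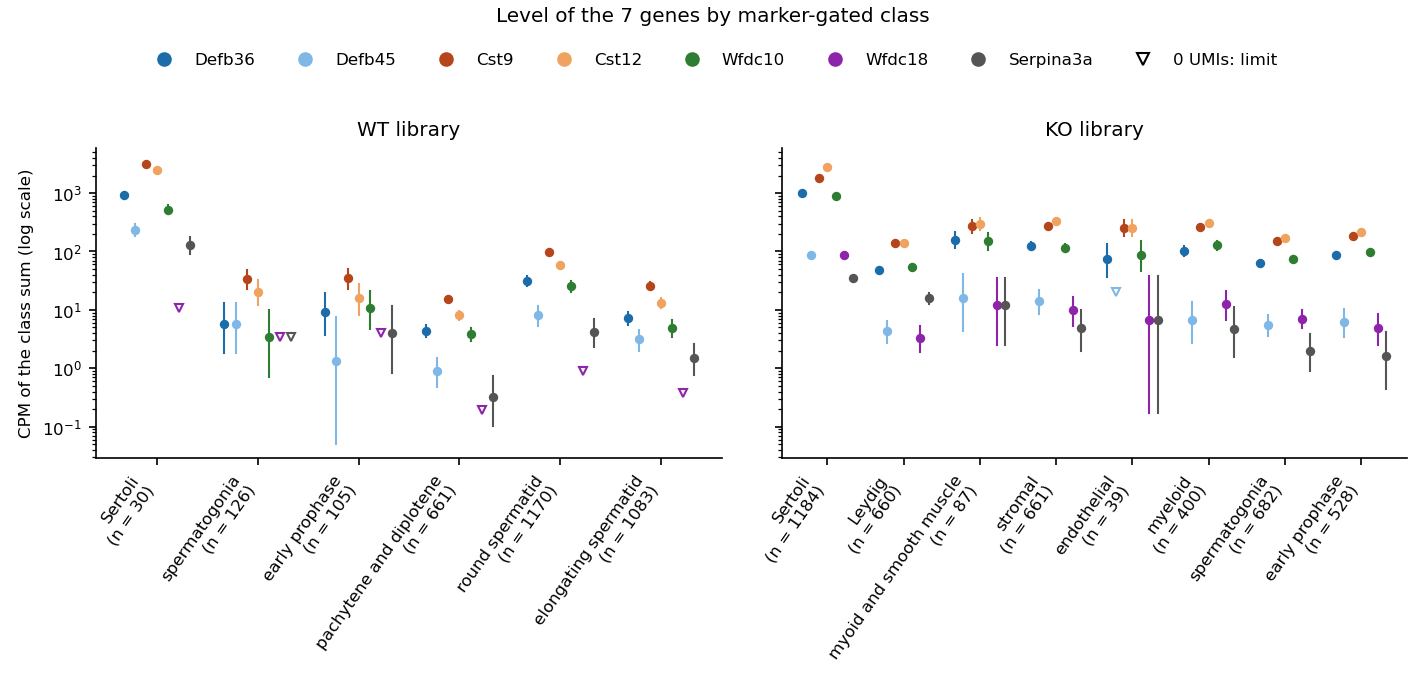
Level of each of the 7 genes (CPM of the class sum, log axis) in each marker-gated class with at least 20 barcodes, WT on the left and KO on the right; points are levels, lines exact Poisson 95% intervals, and open triangles the limit that a count of 0 allows. All genes with UMIs stand highest in the Sertoli class of their library.

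In germ cell classes the genes stood at a small part of their Sertoli level. Sparse barcodes, unlike these, stood at 97.6% to 133% of it in KO. In WT, sparse barcodes stood at 53.7% to 110% for the 6 genes with UMIs. The 16 Sertoli gate markers together stood at 78.3% (KO) and 65.8% (WT) in sparse barcodes, which were defined by having fewer of these markers. In WT pachytene and diplotene barcodes, whose median depth was 22033 UMIs, the 6 genes with UMIs stood at 0.248% to 0.742% of their Sertoli level, and the 16 Sertoli gate markers together at 0.357%. In WT round spermatids the 6 genes stood at 2.33% to 4.81% and the gate markers at 2.72%. The KO library had a higher floor: in spermatogonia the 7 genes stood at 5.80% to 8.32% of their Sertoli level and the gate markers at 7.25%, and in early prophase barcodes at 4.76% to 10.8% and 8.69%. The members thus ran at about the same fraction of the Sertoli level as the markers of the gate itself in these germ classes. Free RNA was not subtracted, and its part in these low levels was not tested.

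Serpina3a, a serpin of the antichymotrypsin family, was the exception in Leydig cells. KO Leydig-gated barcodes had 77 Serpina3a UMIs at 15.8 CPM (interval 12.4 to 19.7), which was 45.6% of its KO Sertoli level, while the other 6 genes stood at 3.76% to 7.53% there and the Sertoli gate markers together at 22.2%. It made up 3.93% (3.11 to 4.89) of the members' UMIs in Leydig barcodes, against 0.518% (0.462 to 0.580) in Sertoli and 0.422% (0.193 to 0.799) in spermatogonia. These UMIs were spread over 61 of 660 Leydig barcodes (median 7433.5 UMIs), and spermatogonia had 2.002 CPM in 8 of 682. Its paralogues Serpina3c, Serpina3g and Serpina3n had 921, 1871 and 806 UMIs in the same Leydig barcodes. Of the 1861 different stretches of 50 bases in Serpina3a's GENCODE M21 transcripts, 1 occurred exactly in another gene (Serpina3k and Serpina3m), and none did in the other 6 members. Reads with mismatches were not examined, so a part from paralogues was not tested. WT had 7 Leydig-gated barcodes and 0 Serpina3a UMIs there.

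Between the genotypes, the sum of the 7 genes in Sertoli-gated barcodes was similar, and the genes within it differed in both directions. The sum was 7455 CPM (7139 to 7782) for WT and 6661 CPM (6607 to 6715) for KO, a KO over WT ratio of 0.893 (0.855 to 0.934). Of the 7 genes, 1 (Wfdc18) was at least 2-fold higher in KO, 2 (Defb45 and Serpina3a) were at least 2-fold lower and 4 lay within 2-fold. Over all 12968 genes with at least 20 UMIs, 6.12% were at least 2-fold higher in KO and 12.5% at least 2-fold lower. That was 18.6% in all, against 3 of the 7 members. These shares are not matched to the members in depth. The WT floor of 3 UMIs is 10.7 CPM, so genes with few KO UMIs could not be called higher. The median log2 ratio was 0.12 over the members. Over all genes tested it was 0, with 43.5% of genes above 0. Ratios that the floor of 3 UMIs would have turned were set to 0, so that median is not a measured centre.

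The beta-defensins parted from each other. Defb36 stood at 911 CPM (803 to 1030; 256 UMIs) for WT against 992 CPM (971 to 1013; 8732 UMIs) for KO, a ratio of 1.09 (0.961 to 1.24) whose interval includes 1. Its neighbour Defb45 stood at 235 CPM (182 to 299; 66 UMIs) for WT against 86.9 CPM (80.9 to 93.3; 765 UMIs) for KO, which put WT 2.70 times higher (interval 2.07 to 3.48). So of 2 adjacent genes, 1 was about equal and the other lower in KO. Among 41 other beta-defensins in the matrices, 13 had a UMI in KO Sertoli-gated barcodes and 1 had at least 50: Defb19, which lies beside Defb45, at 5875 CPM (WT) and 4952 CPM (KO; ratio 0.843, 0.803 to 0.886).

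The cystatins also parted. Cst9 (testatin) stood at 3165 CPM (2960 to 3380; 889 UMIs) for WT against 1823 CPM (1795 to 1851; 16045 UMIs) for KO, so that KO stood at 0.576 of WT (0.538 to 0.617). Cst12 stood at 2492 CPM (2311 to 2684; 700 UMIs) for WT against 2748 CPM (2713 to 2782; 24184 UMIs) for KO, a ratio of 1.10 (1.02 to 1.19). Of the pair, Cst9 had more UMIs in WT and Cst12 had more in KO. Per UMI of the 16 Sertoli gate markers, the Cst12 ratio was 0.954 (0.885 to 1.03), so its direction depends on the scaling, while Cst9 was lower in KO on both scales (0.498 per marker UMI).

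Of the WAP-domain genes, Wfdc10 stood at 523 CPM (442 to 615; 147 UMIs) for WT against 890 CPM (871 to 910; 7836 UMIs) for KO, a ratio of 1.70 (1.44 to 2.02). Wfdc18, an extracellular proteinase inhibitor, had 0 UMIs in WT Sertoli-gated barcodes and 766 UMIs (87.0 CPM, 81.0 to 93.4) in KO, at least 8.15-fold higher with WT set to a floor of 3 UMIs. The limit is the number of WT barcodes: 0 of 30 allows a share of up to 10%, and 9.04% of KO barcodes (107 of 1184) had a Wfdc18 UMI. The 8.15-fold, and the other bounds given for Wfdc18, also take UMIs as independent. In KO, 41 Sertoli-gated barcodes (3.46%) held 89.7% of the 766 UMIs. Over whole libraries, which no gate divides, Wfdc18 had 0 of the members' 7586 UMIs in WT, which allows up to 0.0395%, against 1084 of 83005 in KO (1.31%, 1.23 to 1.39). Serpina3a stood at 128 CPM (89.8 to 177; 36 UMIs) for WT against 34.5 CPM (30.8 to 38.6; 304 UMIs) for KO, which put WT 3.71 times higher (2.55 to 5.25).

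**Figure D2:**
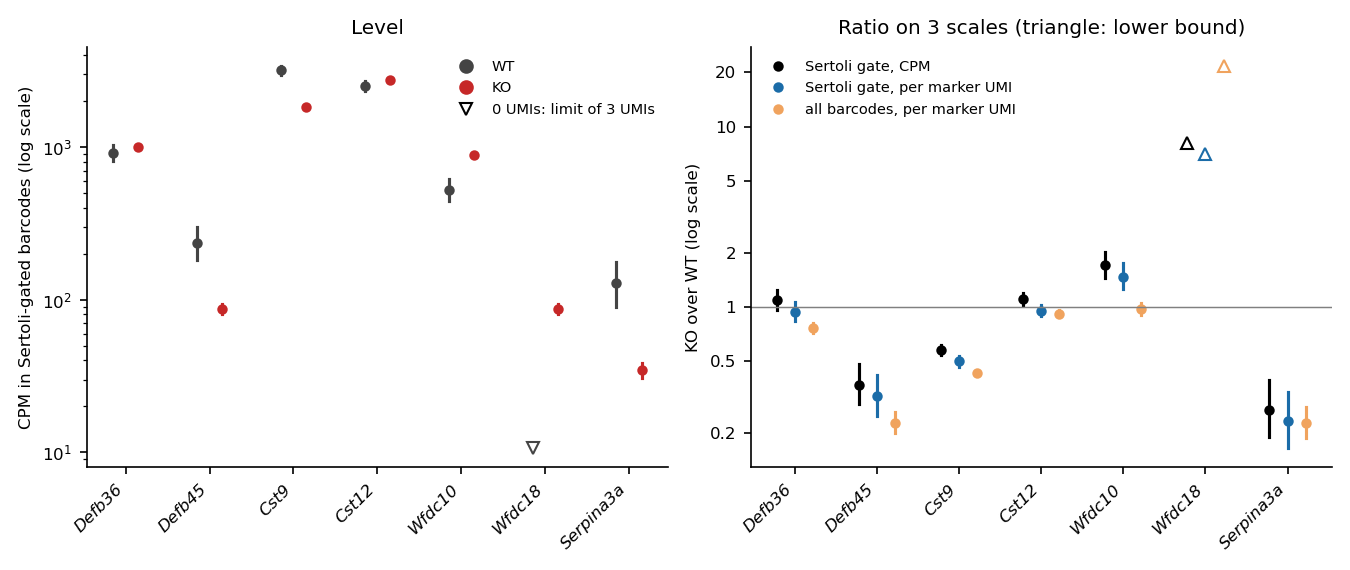
Left, level of each gene in WT (30 barcodes) and KO (1184 barcodes) Sertoli-gated sums (CPM, log axis) with exact Poisson 95% intervals; the open triangle is the limit for 0 UMIs. Right, KO over WT ratio (log axis) on 3 scales with exact conditional 95% intervals and triangles for lower bounds: Defb45, Cst9 and Serpina3a lie below 1 on all 3, and Wfdc10 falls from 1.70 to 0.969.

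The ratios of some genes depended on which barcodes and which scale were used. In the sparse barcodes, Defb36 was 656 CPM (WT) and 1316 CPM (KO), a ratio of 2.01 (1.64 to 2.49), and Cst12 was 1339 and 2681 CPM, a ratio of 2.002 (1.74 to 2.32), whereas both were near 1 in the gate. Defb45 (0.414, 0.283 to 0.621) and Serpina3a (0.349, 0.199 to 0.644) were lower in KO there as in the gate. Wfdc10 was 1.71 (1.37 to 2.15) and Cst9 0.873 (0.786 to 0.972). The sparse sum came to 5599 CPM (WT) and 7568 CPM (KO), a ratio of 1.35, against 0.983 (0.915 to 1.06) per Sertoli marker UMI. Over all barcodes and per marker UMI, the ratio was 0.227 for Defb45, 0.228 for Serpina3a, 0.427 for Cst9, 0.763 for Defb36, 0.914 for Cst12 and 0.969 (0.897 to 1.05) for Wfdc10, and Wfdc18 was at least 21.7-fold higher in KO. Lower Defb45, Cst9 and Serpina3a and the presence of Wfdc18 in KO were common to all of these views, and the ratios of Defb36, Cst12 and Wfdc10 moved with the barcodes or the scale. Spermatid markers were 3.62% of the UMIs of WT sparse barcodes and 0.00154% in KO, and their part in the CPM ratios was not tested.

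The mix of the genes showed the same contrast without any scale per cell. In WT Sertoli-gated barcodes, Cst9 took 42.5% (40.3 to 44.6) of the members' UMIs and Cst12 33.4% (31.4 to 35.5). In KO, Cst9 took 27.4% (27.0 to 27.7) and Cst12 41.2% (40.8 to 41.6). Wfdc10 went from 7.02% in WT to 13.4% in KO, and Defb45 from 3.15% to 1.305%. In other classes, Cst9 was 46.8% of the members' UMIs in WT pachytene and diplotene barcodes and 31.5% in KO spermatogonia. Cst12 took a smaller share outside the gate in both libraries, 24.5% in those WT spermatocytes and 36.4% in those KO spermatogonia.

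**Figure D3:**
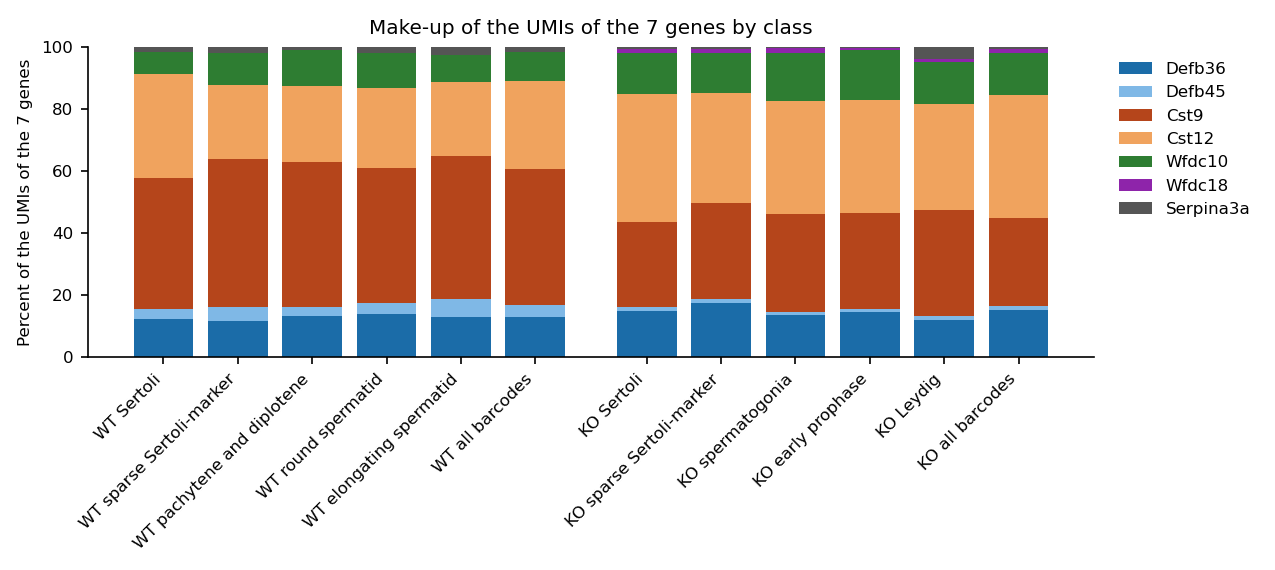
Percent of the UMIs of the 7 genes that each gene holds (bars sum to 100%), by library and class. Cst9 is the largest part in the WT bars and Cst12 in the KO bars other than Leydig, where they are about equal, and Wfdc18 appears in KO bars only.

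The Sertoli gate held different shares of the members' UMIs in the 2 libraries. In KO it held 72.4% (72.1 to 72.7) of the 80942 UMIs in kept barcodes, from 63.5% of Serpina3a to 75.2% of Cst12, and sparse barcodes held 12.1%. In WT it held 27.6% (26.6 to 28.6) of 7582, with 10.9% in sparse and 30.9% in ungated barcodes. Sertoli-gated barcodes were 18.6% of kept barcodes in KO and 0.556% in WT.

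Detection per barcode separated abundant from patchy genes. Thinned to 3000 UMIs, which left out 1 WT and 65 KO barcodes, Cst9 was seen in 29 of 29 WT and 95.3% of 1119 KO barcodes and Cst12 in 29 of 29 and 99.2%. Defb36 was seen in 82.8% (64.2 to 94.2) of WT and 89.6% (87.7 to 91.4) of KO barcodes. Wfdc10 was seen in 62.1% (42.3 to 79.3) and 89.1% (87.1 to 90.9), Defb45 in 48.3% (29.4 to 67.5) and 18.9% (16.7 to 21.4), and Serpina3a in 31.0% (15.3 to 50.8) and 6.43% (5.07 to 8.03). The shares of Wfdc10, Defb45 and Serpina3a differed in the direction of their CPM ratios, and those of Cst9 and Cst12 were at or near 100% in both libraries. Without thinning, Wfdc10 was seen in 93.3% of WT and 97.1% of KO barcodes, Defb45 in 76.7% and 35.3%, and Serpina3a in 40.0% and 11.4%. At the same depth, KO spermatogonia (median 5962 UMIs) showed Defb36 in 18.9%, Wfdc10 in 19.97%, Defb45 in 1.54% and Serpina3a in 0.922%. These are given as a reference level, and the gap between them and the Sertoli shares restates how the genes were chosen. Wfdc18 was seen in 5.36% (4.12 to 6.85) of KO Sertoli-gated and 1.997% (1.07 to 3.39) of KO spermatogonia barcodes, and in 0 of 29 WT Sertoli-gated barcodes.

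Among KO Sertoli-gated barcodes, Wfdc18 was the most unevenly spread by variance over mean, and Wfdc18 and Serpina3a by the share in the highest barcodes. The variance over the mean of UMIs per barcode was 27.1 for Wfdc18 and 5.13 for Serpina3a, whose mean was 0.257 UMIs, and 6.64 for Cst12, whose mean was 20.4. The 59 highest barcodes held 93.7% of the Wfdc18 UMIs and 74.7% of those of Serpina3a, against 35.7% for Defb45 and 13.1% for Cst12. In WT, 12 of 30 barcodes held the 36 Serpina3a UMIs, with at most 5 in one barcode. Cst9 ranged from 1413 to 6100 CPM with a median of 3040 CPM over WT barcodes, and from 0 to 7947 CPM with a median of 1705 CPM over KO barcodes. The WT and KO ranges overlapped for each gene, and the barcodes of one library are not replicates of a genotype.

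**Figure D4:**
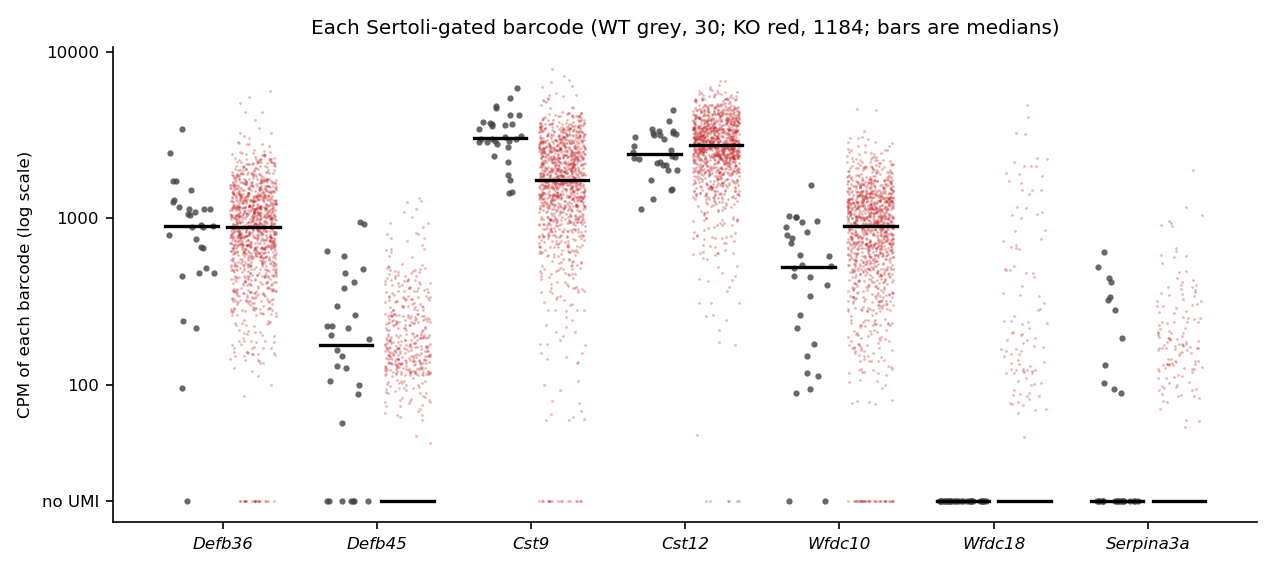
CPM of each gene in each Sertoli-gated barcode (log axis, barcodes with no UMI at the bottom), WT in grey and KO in red, with bars at the medians. Cst9 medians are 3040 in WT and 1705 in KO, and Wfdc18 is a scatter of KO barcodes above a median of 0.

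Wfdc18 came from a small set of KO Sertoli-gated barcodes. Of 1184 barcodes, 1077 had no Wfdc18 UMI, 66 had 1 or 2, and 41 (3.46%, 2.50 to 4.67) had 3 to 61 with a median of 11. Those 41 held 89.7% of the Wfdc18 UMIs, and their median depth was 12415 UMIs against 6766 in barcodes with none. Sertoli markers made up 1.48% of their UMIs and 1.39% in barcodes with none. The split was made on Wfdc18, so its own level is not a result.

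In those 41 barcodes most of the other members were low. Cst9 was 345 CPM against 1937 CPM in barcodes with no Wfdc18, Cst12 was 1118 against 2859 CPM, Wfdc10 was 200.1 against 944 CPM, and Defb45 was 24.8 against 86.1 CPM. Serpina3a had 0 UMIs against 36.3 CPM, at least 5.86-fold lower where UMIs are taken as independent. That bound does not cover its patchiness, since 11.4% of all KO Sertoli-gated barcodes had a Serpina3a UMI. Defb36 was 1114 against 967 CPM (ratio 1.15, 1.05 to 1.26). Thus 5 of the other 6 genes were at least 2-fold lower, where 10.8% of all 12506 genes tested were lower by that much and 10.3% higher. Barcodes with 1 or 2 Wfdc18 UMIs lay between for Cst9 (1530 CPM), Cst12 (2622 CPM) and Wfdc10 (750.0 CPM) but not for Defb45 (150.3 CPM), Defb36 (1231 CPM) or Serpina3a (40.2 CPM).

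A grouping that did not use the 7 genes held most of these barcodes. When both libraries were clustered with the 7 genes left out, 1 cluster held 75 Sertoli-gated KO barcodes and, like 3 other Sertoli clusters, no WT barcode, and 38 of the 41 Wfdc18-rich barcodes with 91.6% of the Wfdc18 UMIs were in it. The cluster was picked after its Wfdc18 count was seen. A Wfdc18 UMI was present in 72.0% of its barcodes (60.4 to 81.8). Relative to the other 1109 Sertoli-gated KO barcodes, Cst9 was 2.92 times lower (666 against 1948 CPM), Cst12 2.06 times lower (1401 against 2893 CPM) and Wfdc10 3.84 times lower (249.7 against 959 CPM). Defb36 was higher by 1.23 (1.16 to 1.32), and the intervals of Defb45 (0.817, 0.620 to 1.06) and Serpina3a (0.831, 0.528 to 1.25) included 1. So 3 of the other 6 genes passed 2-fold by this grouping, where 9.87% of 12638 genes were lower by that much, and the low Defb45 and Serpina3a of the count-based set were not seen in it.

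**Figure D5:**
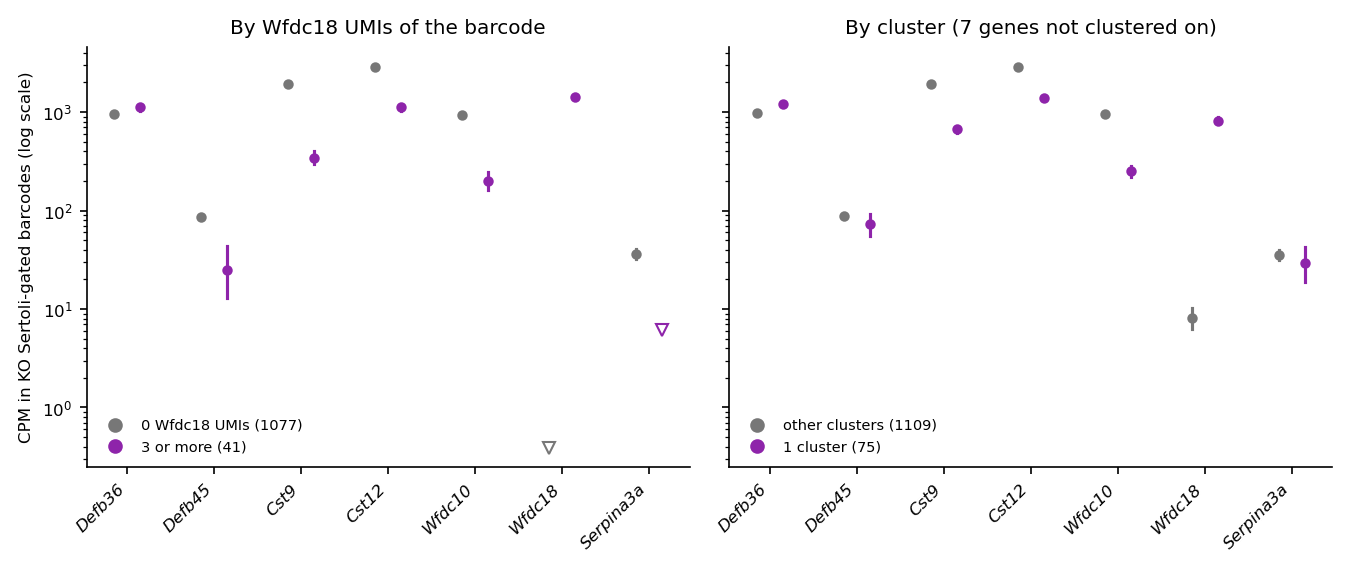
CPM (log axis) of the 7 genes in KO Sertoli-gated barcodes, with exact Poisson 95% intervals and open triangles for limits at 0 UMIs. Left, barcodes with 3 or more Wfdc18 UMIs (41) and with none (1077); right, the cluster that held most of the Wfdc18 (75) and all other clusters (1109). Cst9, Cst12 and Wfdc10 are lower in both splits, and Defb36 is not.

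The Wfdc18-rich barcodes differed in other Sertoli and protease genes too. Fshr, the receptor for follicle-stimulating hormone, was 2.06 CPM (1 UMI) against 39.8 CPM in barcodes with no Wfdc18, and Rhox5, an androgen-responsive homeobox gene, was 37.1 against 220 CPM. Sox9 was 821 against 625 CPM and Clu 9595 against 8492 CPM. The cystatin Cstb, an intracellular inhibitor, was 506 against 135 CPM, the cathepsin Ctsh 221 against 13.8 CPM, and the serpin Serpine2 180 against 3.36 CPM. Cathepsin L (Ctsl) was 2270 against 2688 CPM (ratio 0.844, 0.794 to 0.897). Of the genes tested in each list, 4 of 7 other WAP-domain genes were at least 2-fold lower and none higher, 4 of 11 cathepsin and legumain genes were higher and none lower, and of 21 secreted Sertoli products 5 were higher and 4 lower, against 10.8% lower and 10.3% higher over all genes tested. Eppin, Wfdc1, Wfdc6a and Wfdc9 were the 4 WAP-domain genes, with Wfdc1 at 30.9 against 116 CPM. Leydig markers were 0.151% of the UMIs (10 of 11 markers) against 0.0630%, and markers of epididymal and rete epithelium had 0 UMIs in the 41 barcodes and 3 in the 1077. Their part in these differences was not tested.

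The genes most like each member were found in 2 ways, as descriptions. Over 14 class sums (8 KO and 6 WT classes of at least 20 barcodes), which share libraries and free RNA, the closest were 1700011M02Rik for Defb36 (Pearson r 0.993), Gm14569 for Cst9 (0.995), Rhox8 for Cst12 (0.995), Tmem114 for Wfdc10 (0.993), Dmrtc1a for Defb45 (0.962), Gm34321 for Serpina3a (0.931) and Padi2 for Wfdc18 (0.973). Defb36 and Cst12 reached 0.992 with each other, whereas Wfdc18 and Defb45 reached 0.276. Across the 1184 KO Sertoli-gated barcodes, the Spearman rho of Cst9 and Cst12 was 0.327, the highest pair, and that of Cst9 and Wfdc18 was -0.25, the lowest. Wfdc18 was nearest to Hrk (0.562), Nes (0.460) and Fam171b (0.442), and the sum of the other 6 was nearest to Defb19 (0.605), Sin3b (0.365) and Tsx (0.365). Hrk, a pro-apoptotic BH3-only gene, had 133 UMIs (274 CPM) in the 41 Wfdc18-rich barcodes, where 30 had it, and 9 UMIs (1.16 CPM) in the 1077. Nes, an intermediate filament gene, was at 343 against 9.94 CPM. Like Wfdc18, these companions were nearly absent from the 30 WT Sertoli-gated barcodes. Hrk, Nes and Fam171b had 1, 0 and 0 UMIs there, against 165, 275 and 101 in the KO gate. Over all WT barcodes they had 3, 60 and 42. Whether the WT gate sampled any barcodes of this kind was not tested. Barcode correlations in sparse counts also carry depth.

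Neighbouring genes did not share the members' levels in general. The 3 protein-coding genes on each side of every member gave 32 others, of which 23 were under 10 CPM in KO Sertoli-gated barcodes and 10 had no UMI. The 5 at 100 CPM or more were Defb19 (4952 CPM), Cst3 (548 CPM), Serpina5 (416 CPM), Cstdc1 (219 CPM) and H13 (119 CPM). Serpina5, a protein C inhibitor, lies next to Serpina3a, and Cstdc1, a cystatin-like gene, lies next to Cst12. Cstdc1 was 1.503 times higher in KO than in WT (1.10 to 2.10), and the WAP-domain gene Wfdc9, next to Wfdc10, had 288 UMIs in KO and 3 in WT (ratio 3.06, 1.04 to 14.9). The Wfdc9 ratio rests on 3 WT UMIs.

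The wider families, taken from lists of related genes, held members of both directions. Of 21 other cystatins, 5 had at least 50 UMIs in KO Sertoli-gated barcodes. Of the 6 tested, Cstb was at least 2-fold higher in KO (74.8 CPM WT, 161 CPM KO) and Cst8, an epididymal and germ cell cystatin, was lower (107 CPM WT, 13.9 CPM KO). In KO Leydig barcodes, however, Cst8 had 1640 UMIs at 336 CPM, above its level in either Sertoli gate, and KO spermatogonia had 3.78 CPM. Among 8 other WAP-domain genes tested, Wfdc9 was higher and 3 genes with under 50 KO UMIs were lower, and Eppin, an inhibitor known from sperm and epididymis, lay within 2-fold (256 CPM WT, 152 CPM KO). None of 4 Serpina3 paralogues tested passed 2-fold, but none could have been called higher. The WT floor of 3 UMIs is 10.7 CPM, and the highest of them in KO, Serpina3n, had 15.5 CPM (136 UMIs, 0 in WT). Of 13 other protease inhibitors tested, Timp1, a metalloprotease inhibitor, was higher (0 UMIs WT, 844 UMIs and 95.9 CPM KO) and Spink2, an acrosin inhibitor of germ cells, was lower (142 CPM WT, 8.18 CPM KO). The spermatid markers given above were also higher in the WT gate, and their part in the Cst8 and Spink2 differences was not tested. Of 11 cathepsin and legumain genes, Ctsa and Ctsh were higher and none was lower. Ctsl, the cathepsin that Sertoli cells secrete, had a KO over WT ratio of 0.743 (0.697 to 0.792; 3578 CPM WT, 2659 CPM KO), and legumain (Lgmn) one of 1.99 (1.54 to 2.61; 214 CPM WT, 424 CPM KO). Of 21 secreted Sertoli products tested, Apoe and Sparcl1 were among those higher, and Ptgds, a prostaglandin D synthase (609 CPM WT, 90.0 CPM KO), and Wnt6 were lower. These genes stood higher in other KO classes than in either Sertoli gate. Ptgds had 2854 CPM and Wnt6 412 CPM in Leydig barcodes, Apoe 20443 CPM in myeloid and Sparcl1 2602 CPM in stromal barcodes. The shares of all genes past 2-fold, 6.12% higher and 12.5% lower, are the background for these counts. They are not matched to the listed genes in depth.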

How the data were processed

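Each library was deposited as 1 matrix of raw UMI counts, genes by barcodes. Per the file headers, the software was Cell Ranger 6.1.2. Seurat 4.3 and GRCm39 are also listed in the submitters' processing notes. The calling of barcodes as cells is not given in the sources used here. The 7 genes, marker lists and gene lists were chosen with earlier results of these data known.

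Barcodes with at least 500 genes and at most 20% mitochondrial UMIs (24 genes) were kept. The Sertoli gate asked for 8 of 16 markers and 0.5% of UMIs. A barcode that passed several gates took the class whose marker share was highest relative to its minimum, and was left out as mixed where a somatic gate was involved and the lead was under 2 times. No doublets were removed in the main values. Free RNA was not subtracted. Summed counts per class were expressed as CPM (Python 3.11, scipy 1.17.1). Levels have exact Poisson, shares Clopper-Pearson and ratios conditional binomial intervals at 95%. Genes counted as past 2-fold had at least 20 UMIs in both libraries together. Counts under 3 were set to 3 on the lower side only, where the design had set them to 3 on both sides. The fold count and the ratio's intervals were tried on simulated Poisson counts. Those counts had no spread between barcodes, so the trial does not cover the spread seen here. Clustering and Scrublet used Scanpy 1.11.5. With 1 library per genotype there is no test, and the spread between mice is unknown.

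Named genes were the 7 members, genes of the lists with at least 50 UMIs in KO Sertoli-gated barcodes, the gate markers and the 3 genes most like each member. H13, Serpina3c, Rad21l, and Serpina3k and Serpina3m (named for a shared stretch of sequence) fall outside this rule; H13 and Serpina3c were chosen after their values were seen. Promoters come from RefSeq's GRCm38.p6 table (7 of 7 genes matched) and transcripts from GENCODE M21, so their coordinates are not those of the deposited files' build.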

Additional observations from a re-analysis of the deposited data

How the results depend on the processing

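No paired analysis was possible because each genotype has 1 library. The KO over WT ratio of the summed genes stayed below 1 in all 14 other settings, from 0.773 per Sertoli gate marker UMI to 0.994 with the sparse barcodes added, and was 0.944 with clusters made without the members. The KO sum was 6718 CPM with 2 markers fewer, 6898 CPM without Clu in the gate, 6554 CPM with barcodes of another class kept, 6802 CPM with clusters and 7066 CPM with 10% of the library profile subtracted, which gave 8234 CPM in WT. The gate without Clu left 7 WT barcodes. The Cst12 ratio turned from 1.10 to 0.954 per marker UMI. Without the 41 KO barcodes of 3 or more Wfdc18 UMIs, the sum ratio was 0.913; a Wfdc18 ratio without them is not read, since they were chosen on Wfdc18. Leaving them out, adding the sparse barcodes and weighting barcodes equally (sum ratio 0.879) were chosen after seeing the data. The causes of these shifts were not tested. Across 11 other settings, the ratio ran from 0.257 to 0.392 for Defb45, 0.498 to 0.644 for Cst9 and 0.176 to 0.342 for Serpina3a. It ran from 1.47 to 1.72 for Wfdc10, 0.942 to 1.46 for Defb36 and 0.954 to 1.16 for Cst12. For Wfdc18, whose WT value is a floor, the least fold ran from 1.68 to 10.99, against 8.15 in the main setting. That least fold moved past its counting interval in 6 of the 11 settings. Genes past 2-fold numbered 1676 to 2600 over the other settings, against 2408. Of these, 793 were higher and 1615 lower, which became 793 and 883 with 50 UMIs as the minimum and 423 and 1720 without Clu in the gate. Scrublet marked 0.0185% of WT and 1.97% of KO barcodes, and the WT share is too low for it to be relied on as a doublet filter there. The 30 WT Sertoli-gated barcodes limit every comparison.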
